A study of Homo sapiens with 12 samples.

Results

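A pair of compounds that stimulate p53 were set directly against each other in HepG2 cells that carried a control hairpin: the 2 arrays of cells given Nutlin against the 2 arrays of cells given AICAR, out of 12 arrays in the whole series. HepG2 is an established human hepatoma cell line. All 18417 genes measured by probe sets with 1 gene symbol were taken, and 13813 of them were bright enough to be tested. The sh-con line carried a small-hairpin RNA with no relevant target, and the sh-p53 line, in which the same comparison was made, carried a hairpin against p53. Nutlin was given at 10 uM and AICAR at 0.5 mM, each for 24 h and each at 1 dose, and DMSO was the solvent control. Every group therefore shared the HepG2 background and a hairpin, and the groups differed in the hairpin and the compound. A hairpin lowers a transcript and does not delete the gene, and whether a line was 1 clone or a pool was not given in the sources used here. The transcript that the hairpin targets was not analysed here.

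p53 is a transcription factor held low in unstressed cells by MDM2, a ubiquitin ligase that is itself a p53 target. Nutlin occupies the p53 pocket of MDM2 and so stabilises p53 without damaging DNA. AICAR enters cells through adenosine transporters and is phosphorylated to ZMP, an AMP mimic that switches on AMPK, the kinase that senses low energy, and ZMP also acts on other enzymes. p53 raises CDKN1A, an inhibitor of cyclin-dependent kinases, and through it keeps the DREAM complex and the retinoblastoma proteins on promoters of cell cycle genes, which lowers their transcripts. In hepatocytes AMPK is known for restraining lipid synthesis and glucose output.

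The values were log2 expression values, on which a difference of 1 is a 2-fold change, and differences are given as Nutlin minus AICAR with the SE of the fit. A gene was called at a limma adjusted p under 0.05. Medians of the arrays over all probe sets lay between 5.64 and 5.84. Arrays of 1 group correlated at r = 0.983 to 0.994 across genes, and the SD of the difference between the replicates was widest in sh-con AICAR, at 0.302, against 0.223 in sh-con Nutlin. The arrays came from cells plated as biological duplicates, and their number limits the precision of each comparison. The background level named below was set at 4.58, the 25th percentile of the gene means, and was not measured from background probes. Where the lower group lay under it the size of a difference is uncertain. Of 8 hepatoma markers 0 were called in sh-con by limma (1 was lower without array 1 of sh-con Nutlin). Albumin (ALB) read 12.96 and 13.06 with Nutlin and 13.01 and 12.96 with AICAR.

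The compounds gave the control hairpin cells different expression over much of the array: 4805 of 13813 genes, or 34.8%, were called. With Nutlin 2467 genes (17.9%) were higher and 2338 (16.9%) were lower than with AICAR. Each list count in sh-con below is to be read beside these shares of all genes. At least 2-fold apart were 635 genes (4.6%) higher and 681 (4.93%) lower. Nearly balanced counts rested on the scaling, since the share of calls that were higher with Nutlin went from 51.3% to 57.7% when the arrays were quantile normalised again and to 60.4% when they were centred on the median; these scalings moved the median of all genes by 0.06 and 0.081. The 12 genes lowest with Nutlin were SPC25, CDK1, ESCO2, MUC13, PBK, CENPE, CCNE2, TICRR, CLSPN, EXO1, NCAPG and CDCA2, from -4.96 to -3.94. Apart from MUC13, a cell surface mucin, all act in DNA replication, recombination, chromosome cohesion or mitosis. The 12 highest were ABCA12, PLCB1, LYVE1, IGFBP1, C10orf12, LCN15, PTPRK, SLC44A5, PRKCA, PAPPA-AS1, VAV2 and NSRP1, from 3.38 to 2.54, and they included a lipid transporter, a phospholipase, a protein kinase C, a receptor phosphatase and an insulin-like growth factor binding protein.

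In sh-p53 the same compounds differed in about as many genes, 4775 (34.6%), with 2624 (19%) higher and 2151 (15.6%) lower with Nutlin. List counts in sh-p53 are to be read beside these last shares. These 2 comparisons share no array. Across the 13813 tested genes the differences in the lines correlated at r = 0.673, given as a description, since genes of 1 array are not independent. Of the sh-con calls, 60.6% were called in the same direction in sh-p53, and of the sh-p53 calls, 61.0% were so in sh-con; 85 genes were called in opposite directions. Of the genes higher with Nutlin in sh-con 65.3% were also higher in sh-p53, and of those lower 55.6% were also lower. The sh-p53 split also rested on the scaling, since 55% of its calls were higher in the main values and 69.2%, 3017 against 1342, with arrays centred on the median. Leaving out array 1 of sh-p53 Nutlin or array 1 of sh-p53 AICAR lowered the count higher in sh-p53 to 1667 and 1669.

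The difference between the lines was tested gene by gene as an interaction, the sh-con difference minus the sh-p53 difference. It was called for 1088 genes (7.88%), positive for 364 (2.64%) and negative for 724 (5.24%). List counts of the interaction below are to be read beside these shares of all genes. The positive share of calls was 33.5%, and became 45.9%, 729 positive against 858 negative, with a second quantile normalisation and 25.3% with centring. The positive count was 185 without array 1 and 242 without array 2 of sh-con Nutlin, 173 without array 1 of sh-p53 Nutlin, and 211 and 220 without array 1 and array 2 of sh-p53 AICAR. The negative count was 466 without array 2 of sh-con Nutlin, 409 without array 1 of sh-p53 Nutlin and 426 without array 1 of sh-p53 AICAR.

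**Figure D1:**
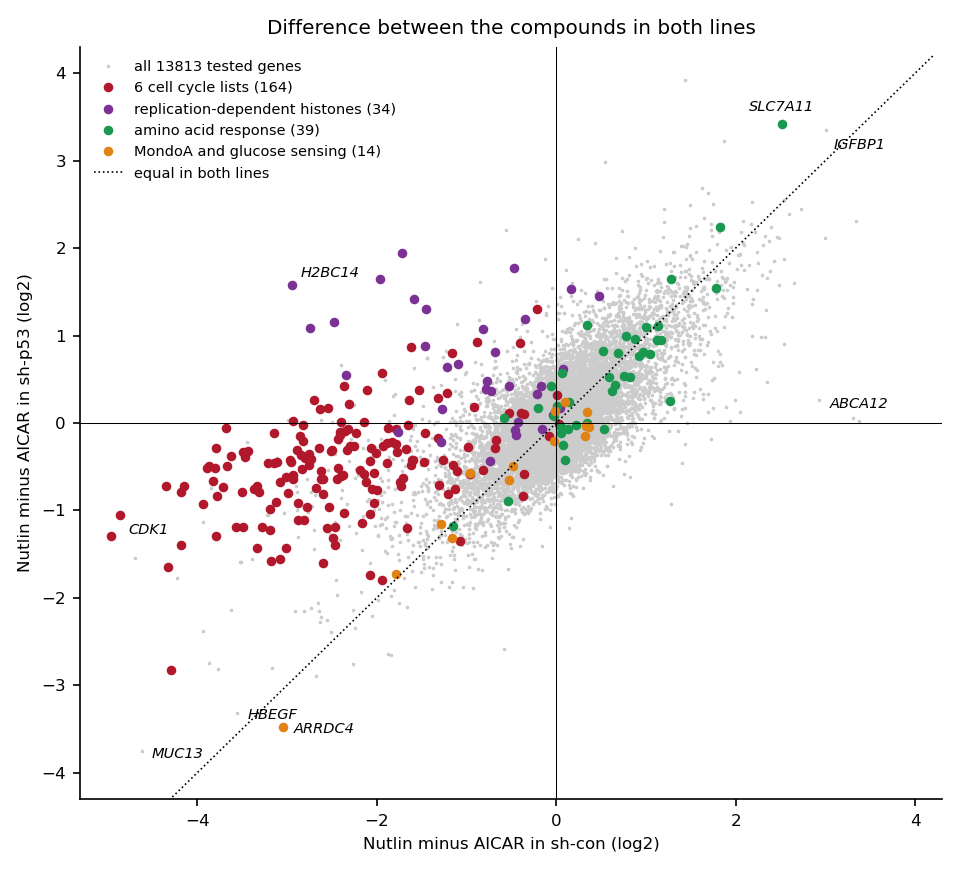
Nutlin minus AICAR on the log2 scale in sh-con (x axis) and in sh-p53 (y axis), 1 point per tested gene, with 4 groups of lists coloured and a dotted line where both lines are equal. The red points of the 6 cell cycle lists lie far to the left with a median of -2.43 in sh-con but near -0.481 in sh-p53. MUC13, HBEGF, ARRDC4, IGFBP1 and SLC7A11 lie nearer the dotted line, although the interaction was called for MUC13 (-0.87) and SLC7A11 (-0.90).

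The widest separation was in the genes that duplicate and segregate chromosomes, which were low with Nutlin. Of 164 tested members of 6 lists for replication, S phase, mitotic kinases, kinetochore and spindle, condensin and recombination, 157 (95.7%) were lower with Nutlin than with AICAR and 0 were higher, against 16.9% and 17.9% of all tested genes. Their median was -2.43, beside 0.0202 over all genes. Against DMSO in sh-con 159 of the 164 were lower with Nutlin (18.9% of all genes were) and 0 were higher (11.3% were). With AICAR 41 were lower (23.2% of all genes) and 32 higher (14.6%), from -2.04 for SMC4 to 2.05 for CCNE2, around a median of -0.0699, and these comparisons share the DMSO arrays. The AICAR counts were 46 lower and 17 higher without array 1 of sh-con AICAR, 21 and 31 (median 0.0494) without array 2, and 50 and 15 with arrays centred on the median, where the median was -0.211. In sh-p53 the median was -0.481, with 95 lower and 6 higher, and the interaction was negative for 144 (87.8%) and positive for 0. The sh-p53 count fell to 65 without array 2 of sh-p53 AICAR and to 71 with arrays centred on the median; without any 1 array the sh-con count stayed between 154 and 157 and the interaction count between 135 and 146. In bulk RNA a smaller share of dividing cells and less transcript per cell cannot be told apart.

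Promoters are shown for members whose window, from 250 bases before to 50 after the start in the RefSeq table of GRCh38.p14, held a cell cycle motif, since it is through such motifs that DREAM and E2F are known to bind. The capitals mark the motif, TTTGAA for the CHR element of late cell cycle genes in the first 3 and TTTNGCGC or its reverse complement for an E2F site in the last 3. The stretches are 5′ to 3′ on the strand of the gene, at chr2:168890632-168890680 (minus strand), chr10:60778130-60778215 (plus), chr15:69414254-69414339 (plus), chr1:212035700-212035747 (plus), chr16:46689496-46689583 (plus) and chrX:24693741-24693828 (plus), all upstream of the start.
SPC25: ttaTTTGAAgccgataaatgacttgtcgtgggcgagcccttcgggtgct
CDK1: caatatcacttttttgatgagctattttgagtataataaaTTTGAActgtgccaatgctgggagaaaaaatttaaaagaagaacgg
KIF23: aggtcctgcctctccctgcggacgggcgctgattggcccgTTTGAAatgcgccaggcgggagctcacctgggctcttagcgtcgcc
DTL: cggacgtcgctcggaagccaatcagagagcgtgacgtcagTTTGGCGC
ORC6: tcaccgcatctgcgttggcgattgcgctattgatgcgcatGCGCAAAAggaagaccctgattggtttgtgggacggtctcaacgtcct
POLA1: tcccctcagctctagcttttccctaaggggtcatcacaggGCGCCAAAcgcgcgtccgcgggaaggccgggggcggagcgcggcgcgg

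The motif began 247 bases before the start in SPC25, 161 in CDK1, 55 in KIF23, 8 in DTL, 123 in ORC6 and 137 in POLA1. On either strand, TTTGAA was found in the windows of 25 of 37 kinetochore and spindle genes (67.6%) and 13 of 22 mitotic kinase, cyclin and exit genes (59.1%), but in 0 of 35 replication genes, against 9.61% of the 10836 tested genes with a window. The E2F letters were found in 14 of 35 replication genes (40%) and in 2.8% of tested genes. Among 559 genes at least 2-fold lower with Nutlin, 21.5% had TTTGAA, 9.48% the E2F letters and 58.5% a CCAAT box (letters CCAAT, 35.9% of tested genes). Among 501 at least 2-fold higher, these shares were 9.58%, 1.8% and 30.3%. Over all 35116 windows of the table the shares were 15.2% for TTTGAA, 1.79% for the E2F letters and 34.6% for CCAAT. The motifs were counted separately, a window could hold more than 1, and a match of letters is not a bound site.

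The mitotic kinase gene CDK1, whose promoter is printed above, read 4.45 and 3.85 with Nutlin, 9.02 and 9.0 with AICAR and 8.16 and 7.98 with DMSO. Its Nutlin arrays lay at the background level and its AICAR arrays lay above both DMSO arrays. The difference was -4.86 ± 0.20 (29.0-fold, adjusted p = 6.14e-12), and in sh-p53 it was -1.05 ± 0.20, with 7.74 and 7.43 against 8.47 and 8.80, so that the interaction was -3.81. SPC25, a subunit of the NDC80 complex that ties kinetochores to microtubules, read 3.74 and 3.31 against 8.60 and 8.38, a difference of -4.96 ± 0.20, and 7.56 and 7.19 against 8.45 and 8.90 in sh-p53. CCNB1, the cyclin partner of CDK1, read 7.49 and 7.43 with Nutlin and 10.34 and 10.21 with AICAR, a difference of -2.82 ± 0.14. In sh-p53 the CCNB1 arrays overlapped, at 10.23 and 10.09 against 10.11 and 10.26, and the interaction was -2.79 (adjusted p = 5.04e-08).

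Mitotic genes were low with Nutlin almost without exception. Of the mitotic kinases, cyclins and exit factors 27 of 28 were lower with Nutlin (median -2.48). PBK, a mitotic kinase, differed by -4.35, BUB1, a spindle checkpoint kinase, by -3.44, FBXO5, the inhibitor of the anaphase-promoting complex, by -3.31 and CDC25C, the phosphatase that activates CDK1, by -3.19. Of the kinetochore and spindle genes 43 of 44 were lower (median -2.88), among them the kinesins CENPE (-4.32), KIF23 (-3.93), KIF2C (-3.87) and KIF11 (-3.8) and the NDC80 subunit NUF2 (-3.68). NUF2 differed by -0.05 ± 0.16 in sh-p53, with an interaction of -3.63.

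Condensin and chromosome structure genes gave 11 of 12 lower (median -2.53). NCAPG, a condensin subunit, read 6.36 and 5.93 with Nutlin against 10.39 and 10.19 with AICAR and differed by -4.15. MKI67, the proliferation antigen that coats mitotic chromosomes, differed by -3.79, TOP2A, the topoisomerase that untangles sister chromatids, by -3.11 and HMGB2, a chromatin protein, by -2.80. Among the same 12 genes, SMC4, the ATPase of condensin, was low with both compounds: its arrays read 6.92 and 6.71 with Nutlin, 7.29 and 6.76 with AICAR and 9.20 and 8.93 with DMSO. SMC4 differed by -0.21 ± 0.19 in sh-con (adjusted p = 0.475) and by 1.31 ± 0.19 in sh-p53, and the interaction was -1.52 (adjusted p = 0.00141). LMNB1, the nuclear lamina protein B1, had a like order, with an sh-con difference of -0.88, an sh-p53 difference of 0.92 and an interaction of -1.80.

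DNA replication genes were lower with Nutlin in 41 of 43 cases (median -1.88). CLSPN, the mediator of the replication checkpoint, read 4.14 and 4.21 against 8.45 and 8.27 and differed by -4.18. DTL, the adaptor of the ubiquitin ligase that destroys licensing factors, differed by -3.89, the licensing factor CDC6 by -3.62, MCM10 by -3.49, the origin subunit ORC6 by -3.34 and the polymerase alpha subunit POLA1 by -2.03. PCNA, the sliding clamp and also a p53 target, stood apart: it read 10.82 and 10.84 with Nutlin and 11.56 and 11.45 with AICAR, beside 10.88 and 10.81 with DMSO, so that its difference of -0.67 ± 0.14 lay in a level raised with AICAR (0.66 against DMSO, adjusted p = 0.00133) and not lowered with Nutlin (-0.01, adjusted p = 0.957).

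Of the genes that supply nucleotides and start S phase, 20 of 21 were lower with Nutlin (median -1.66). CCNE2, the cyclin that starts S phase, was raised with AICAR over DMSO as well (2.05): it read 4.12 and 3.84 with Nutlin, 8.46 and 8.09 with AICAR and 6.35 and 6.11 with DMSO. The difference was -4.29 ± 0.19 in sh-con and -2.82 ± 0.19 in sh-p53, an interaction of -1.47. CDC25A, the phosphatase that opens S phase, differed by -3.56, CCNA2, the S phase cyclin, by -3.47, TK1, thymidine kinase, by -3.19 and RRM2, the ribonucleotide reductase subunit made in S phase, by -3.14. RRM2B, its p53-induced counterpart, went the other way, with 10.15 and 10.05 against 9.09 and 8.92 (1.09 ± 0.15).

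Recombination and Fanconi genes gave 15 of 16 lower (median -2.39), among them the exonuclease EXO1 (-4.17), XRCC2 (-3.21), FANCI (-3.14) and the helicase BRIP1 (-2.94). BRIP1 differed by 0.03 ± 0.19 in sh-p53, with an interaction of -2.96. Among G1 cyclins and inhibitors 9 of 21 (42.9%) were lower and 3 (14.3%) higher, beside 16.9% and 17.9% of all genes. CDK2, which pairs with the E and A cyclins, differed by -2.81, LIN9, a core subunit of DREAM, by -1.97 and RBL1, the pocket protein p107, by -1.63. CDK6, the G1 kinase, went the other way, at 9.40 and 9.18 with Nutlin against 7.63 and 7.0 with AICAR (1.98 ± 0.19), and stood at 9.58 and 9.37 with DMSO. The retinoblastoma gene RB1 differed by 1.21.

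Replication-dependent histone genes, which are transcribed only while DNA is copied, were ordered oppositely in the lines. In sh-con 24 of 34 tested members were lower with Nutlin and 1 was higher, with a median of -0.754. In sh-p53 21 were higher and 0 lower, with a median of 0.586, and the interaction was negative for 23 (67.6%) and positive for 0. Over all genes it was negative for 5.24% and positive for 2.64%. The 1 member higher in sh-con was not called without array 1 or array 2 of sh-con Nutlin or array 2 of sh-con AICAR. H2BC14 read 6.05 and 5.77 with Nutlin against 8.95 and 8.75 with AICAR in sh-con (-2.94 ± 0.15), and 10.25 and 10.02 against 8.64 and 8.48 in sh-p53 (1.58 ± 0.15). The groups did not overlap in either line and their order was turned round, with an interaction of -4.52, the lowest of all genes tested. The AICAR arrays of H2BC14 were alike in the lines, and in DMSO it stood at 10.66 and 10.54 in sh-con.

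Among the other histone genes H2BC7 had an interaction of -3.83, H4C2 of -3.66, H2AC4 of -3.63 and H3C2 of -3.60, from sh-con differences of -2.74, -1.71, -2.47 and -1.96 and sh-p53 differences of 1.09, 1.94, 1.16 and 1.65. Against DMSO in sh-con, 28 of the 34 histone genes were lower with Nutlin (18.9% of all genes were) and 19 were lower with AICAR (23.2% were), with medians of -1.28 and -0.576; these 2 comparisons share the DMSO arrays. Histone genes of 1 class are nearly identical in sequence, so that a probe set may also measure its relatives.

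**Figure D2:**
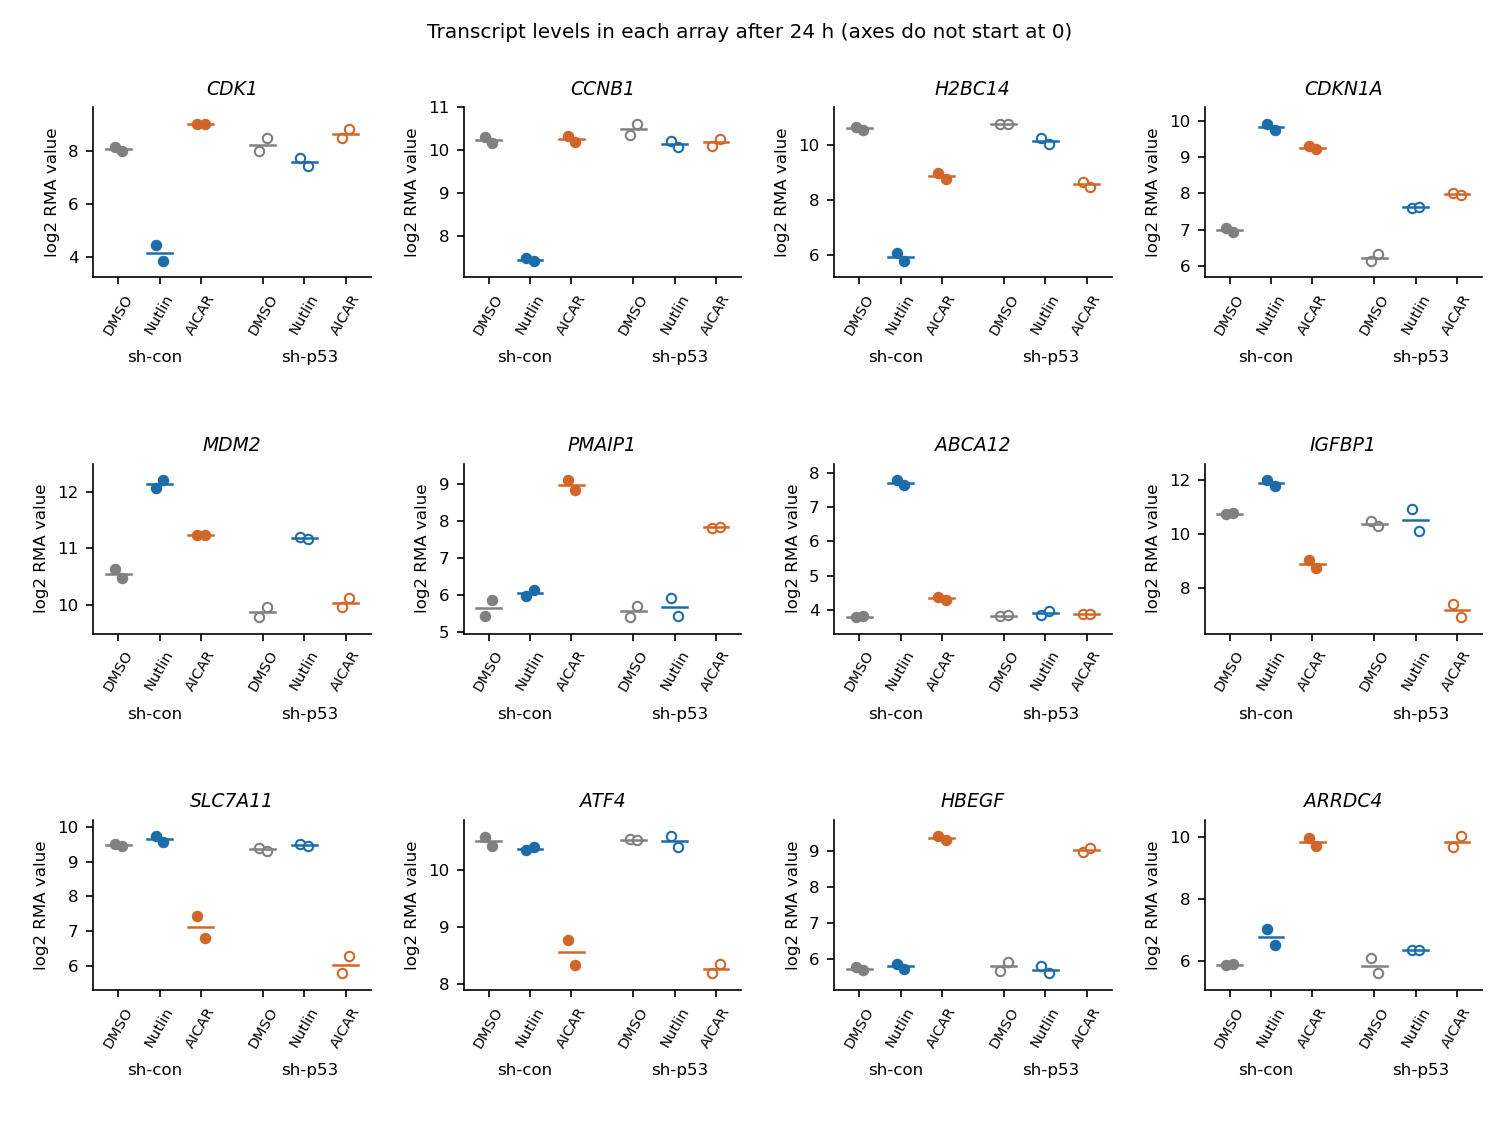
Log2 expression of 12 genes in each array, with filled points for sh-con, open points for sh-p53, grey for DMSO, blue for Nutlin, orange for AICAR and a line at the mean of each group of 2 arrays. CDK1, CCNB1 and H2BC14 are lowest in the sh-con Nutlin arrays among the 6 groups shown, while SLC7A11 and ATF4 are low, and HBEGF and ARRDC4 high, in the AICAR arrays of both lines.

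Many p53 targets were higher than in DMSO with each compound in sh-con, and part of them differed between the compounds. Of 76 listed targets 66 were tested: 29 were higher with Nutlin, 14 were higher with AICAR and 23 were not called, with a median of 0.312, beside 17.9% and 16.9% of all genes. Against DMSO in sh-con 53 of the 66 were higher and 2 lower with Nutlin (median 0.968), and 44 were higher and 4 lower with AICAR (median 0.782). These comparisons share the DMSO arrays. Over all genes 11.3% were higher and 18.9% lower with Nutlin, and 14.6% and 23.2% with AICAR. The repair gene FANCC was lower than in DMSO with both, by -1.18 and -1.85, and GTSE1 differed from DMSO by -2.01 with Nutlin. In sh-p53 the median was 0.00689, and 16 were higher and 17 lower, beside 19% and 15.6% of all genes, the higher count falling to 10 without array 1 of sh-p53 Nutlin. The interaction was positive for 13 targets, among them ABCA12, PLTP, CYP3A5, PTCHD4, SPATA18, TP53INP2, POLH and CDKN1A, a count that was 9 without array 2 of sh-con Nutlin. It was negative for 1, the mitotic protein GTSE1, and the negative count was 2 without array 1 of sh-con Nutlin or of sh-con AICAR and 4 without array 2 of sh-con AICAR or of sh-p53 Nutlin.

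CDKN1A, the inhibitor that links p53 to the arrest, read 9.92 and 9.76 with Nutlin, 9.31 and 9.21 with AICAR and 7.06 and 6.93 with DMSO. Both compounds lay far above DMSO, and Nutlin lay above AICAR by 0.58 ± 0.13 (1.49-fold, adjusted p = 0.00238). In sh-p53 the order of CDKN1A was reversed, with 7.61 and 7.63 against 8.02 and 7.96, a difference of -0.37 ± 0.13 (adjusted p = 0.0409) that was not called once any 1 of the 4 sh-p53 arrays was left out. The interaction was 0.95 (adjusted p = 0.00358). Of 12 growth arrest targets 7 were higher with Nutlin and 4 with AICAR (median 0.531). GDF15, a secreted stress cytokine, read 12.20 and 12.16 against 10.88 and 10.57 (1.45 ± 0.15) and differed alike in sh-p53 (1.49).

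PTCHD4, a patched-related membrane protein, differed by 1.64 in its brightest probe set and by 3.83 in its other one, and by 0.28 ± 0.16 in sh-p53, where the mean of both probe sets gave 1.40 and was called. TRIM22, a tripartite motif antiviral protein, differed by 1.26. The polo-like kinase PLK2 was the reverse, with 7.79 and 7.83 under Nutlin and 9.45 and 9.32 under AICAR (-1.58 ± 0.17), and so was CCNG2, an atypical cyclin of arrested cells (-1.19 ± 0.14). PLK2 and CCNG2 kept that order in sh-p53, at -1.87 and -0.98.

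Of 17 death genes tested, 5 were higher with Nutlin and 4 with AICAR, shares of 29.4% and 23.5% beside 17.9% and 16.9% of all genes. Their median was -0.00864, and the higher count was 3 without any 1 of the 4 sh-con arrays. PMAIP1, which encodes the BH3-only protein NOXA, read 5.99 and 6.16 with Nutlin, 9.12 and 8.85 with AICAR and 5.45 and 5.86 with DMSO. AICAR stood furthest from DMSO, and the difference was -2.91 ± 0.18 (7.52-fold, adjusted p = 8.1e-10). It was -2.15 ± 0.18 in sh-p53, and the interaction of -0.76 was not called (adjusted p = 0.0784), except without array 2 of sh-con AICAR or of sh-p53 Nutlin, where it was -0.89 and -0.99. TNFRSF10D, a decoy receptor for the death ligand TRAIL, was also higher with AICAR in both lines (-1.05 in sh-con, -1.29 in sh-p53).

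On the Nutlin side of the death list, SPATA18, a mitochondrial quality control protein, read 9.36 and 9.14 against 7.27 and 6.87 (2.18 ± 0.17), and its interaction was 1.18 (adjusted p = 0.00397). The channel-forming BAX differed by 0.64 and the survival gene BCL2L1 by 0.72. BBC3, which encodes PUMA, read 7.05 and 7.33 against 6.86 and 7.22, so that its arrays overlapped (0.15 ± 0.18, adjusted p = 0.607). TP53I3, an oxidoreductase, read 11.53 and 11.50 against 11.13 and 11.02, both far above 7.98 and 8.06 with DMSO. Its difference of 0.44 ± 0.16 (adjusted p = 0.0403) was not called once any 1 of the 4 sh-con arrays was left out.

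Feedback targets gave 4 of 8 higher with Nutlin and 1 with AICAR (median 0.24), the latter count being 2 without array 2 of sh-con AICAR. MDM2, the target whose protein Nutlin blocks, read 12.07 and 12.21 against 11.25 and 11.25 (0.90 ± 0.14). It differed by 1.15 ± 0.14 in sh-p53, with 11.20 and 11.17 against 9.96 and 10.12, and the interaction was -0.25 (adjusted p = 0.471). PPM1D, the phosphatase that switches off the damage response, was higher with AICAR, at 10.37 and 10.26 against 9.35 and 9.20 (-1.04 ± 0.13). TP53INP2, an autophagy factor, read 8.90 and 8.82 with Nutlin and 8.95 and 8.91 with AICAR in sh-con (-0.07), but differed by -1.19 in sh-p53, an interaction of 1.12.

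Of 8 repair targets 5 were higher with Nutlin and 2 with AICAR (median 0.62). The damage sensors DDB2 and XPC differed by 0.99 and 1.06, the translesion polymerase POLH by 0.57 and FANCC by 0.67. POLH read the other way in sh-p53, at -0.49, a difference not called without array 2 of sh-p53 Nutlin or of sh-p53 AICAR, and its interaction was 1.06. In the redox, metabolism and growth control targets 8 of 21 (38.1%) were higher with Nutlin and 3 (14.3%) with AICAR (median 0.266). Over all genes the shares were 17.9% and 16.9%. ABCA12, a lipid transporter of the ABC family, read 7.79 and 7.64 with Nutlin, 4.38 and 4.29 with AICAR and 3.78 and 3.82 with DMSO, which puts its AICAR arrays under 4.58. The difference was 3.38 ± 0.13 (10.4-fold), and in sh-p53 the 4 arrays lay between 3.86 and 3.95, giving an interaction of 3.35. Every group mean of ABCA12 other than that of sh-con Nutlin lay under 4.58. It therefore passed the brightness filter only through the arrays where it was high, and its tests are not independent of that filter.

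PLTP, the phospholipid transfer protein of plasma, was raised by both compounds and more by Nutlin: it read 10.96 and 10.89 with Nutlin, 9.11 and 8.88 with AICAR and 7.44 and 7.39 with DMSO. Its difference of 1.93 ± 0.15 contrasted with 0.03 ± 0.15 in sh-p53, an interaction of 1.91. CYP3A5, a drug-metabolising cytochrome P450, differed by 1.99 in sh-con and 0.26 in sh-p53, an interaction of 1.73. LPIN1, the phosphatidate phosphatase of glyceride synthesis, was higher with AICAR in both lines, at -0.88 and -1.17.

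**Figure D3:**
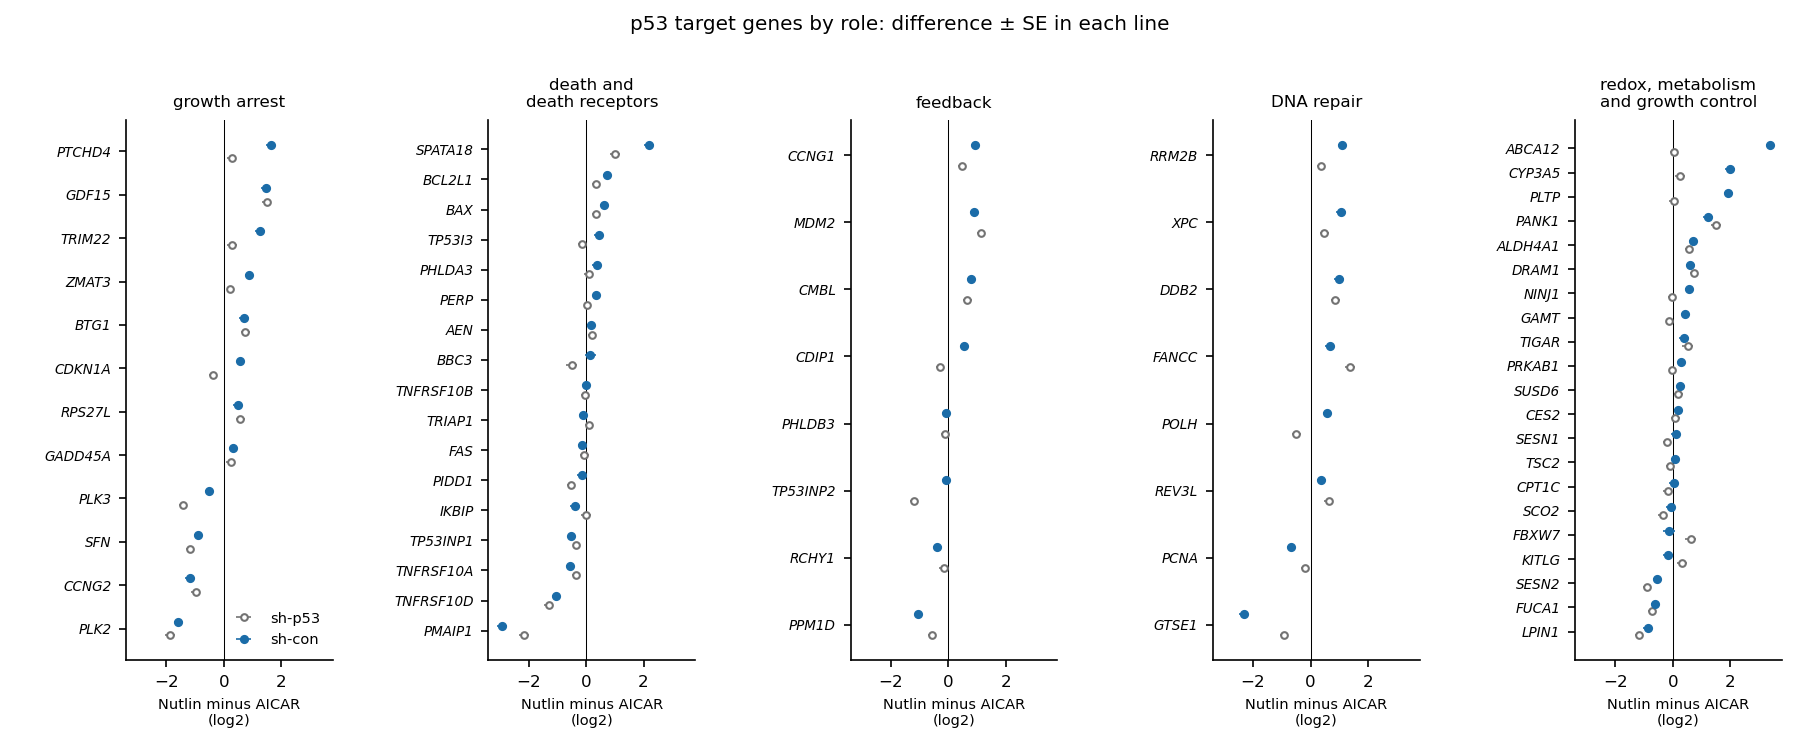
Nutlin minus AICAR on the log2 scale, with its SE, for the tested p53 targets in 5 roles, filled for sh-con and open for sh-p53. Filled points run from -2.91 for PMAIP1 to 3.38 for ABCA12, and ABCA12, PLTP and CYP3A5 have open points near 0.

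A second block of genes separated the compounds in both lines. The amino acid response, which the translationally controlled factor ATF4 drives when amino acids or charged transfer RNAs run short, had 23 of 39 members higher with Nutlin and 3 lower (median 0.584). In sh-p53 the count was 22 and 3 (median 0.521), and the interaction was called for 1 member in each direction, the negative one, SLC7A11, not being called without any 1 array other than array 2 of sh-con AICAR or of sh-p53 AICAR, nor with arrays normalised again or centred, without the filter on dim genes, or in a fit of the 8 Nutlin and AICAR arrays. The interaction shares were 2.56% in each direction, beside 2.64% positive and 5.24% negative over all genes. Against DMSO in sh-con 8 of the 39 were higher and 4 lower with Nutlin, while with AICAR 4 were higher and 21 lower. Over all genes the shares against DMSO were 11.3% and 18.9% with Nutlin and 14.6% and 23.2% with AICAR, and the DMSO arrays are shared.

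Promoters of 2 transfer RNA synthetase genes of the list are shown because they held the letters TTGCATCA (capitals), a composite C/EBP and ATF4 response element. They lie at chr16:70289646-70289733 and chr9:92293698-92293750 of GRCh38.p14, both on the minus strand, with the motif beginning 187 and 13 bases before the start. These letters were in 7 of 34 windows of the list (20.6%), in 0.544% of those of tested genes and in 0.866% of all windows.
AARS1: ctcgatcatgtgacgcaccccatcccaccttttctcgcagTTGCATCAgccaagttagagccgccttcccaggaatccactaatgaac
IARS1: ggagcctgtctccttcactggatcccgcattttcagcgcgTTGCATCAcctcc

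ATF4 itself read 10.35 and 10.41 with Nutlin, 8.77 and 8.34 with AICAR and 10.60 and 10.43 with DMSO. The Nutlin and DMSO arrays lay together and the AICAR arrays lay well under them, a difference of 1.83 ± 0.15 (3.54-fold), and its other probe set gave 0.78. SLC7A11, the cystine importer, read 9.72 and 9.57 against 7.45 and 6.80 (2.52 ± 0.19) and 9.49 and 9.45 against 5.79 and 6.30 in sh-p53. PSPH, the last enzyme of serine synthesis, differed by 1.79, MTHFD2, the mitochondrial folate enzyme, by 1.28, and the synthetases AARS1 and IARS1 by 0.78 and 0.58. Not every member followed: ATF3, a stress factor of the same pathway, was higher with AICAR in both lines (-1.14 in sh-con, -1.18 in sh-p53). The 23 endoplasmic reticulum stress genes had 2 (8.7%) higher and 3 (13%) lower with Nutlin, shares under the 17.9% and 16.9% of all genes. HERPUD1 (0.65), a degradation factor, and XBP1 (0.60), the spliced regulator, were among the higher ones and CRELD2 (-0.71), a secreted chaperone, among the lower.

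Part of the glucose-sensing genes were higher with AICAR. The MondoA factors bind carbohydrate response elements when glucose 6-phosphate rises, and of 14 listed genes 0 were higher with Nutlin, 7 were lower and 7 were not called in sh-con (median -0.248), with 4 lower without array 2 of sh-con Nutlin and 1 higher without array 1 of sh-con AICAR. The sh-p53 median was -0.35, and the interactions of TXNIP and ARRDC4 were -0.12 and 0.43. TXNIP, the thioredoxin-binding arrestin that restrains glucose uptake, has a match to such an element, searched on both strands, in the stretch printed here. It comes from chr1:145996611-145996707 (minus strand) of GRCh38.p14, and the capitals mark the match and begin 88 bases before the start. Only 1 of 13 windows of this list (7.69%) held a match, beside 0.867% of tested genes and 0.501% of all windows.
TXNIP: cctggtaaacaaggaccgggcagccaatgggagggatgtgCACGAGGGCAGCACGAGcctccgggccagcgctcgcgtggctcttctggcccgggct

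TXNIP read 10.50 and 9.95 with Nutlin, 11.54 and 11.46 with AICAR and 9.84 and 9.83 with DMSO, a difference of -1.28 ± 0.16. Its relative ARRDC4 read 7.02 and 6.53, 9.95 and 9.69, and 5.88 and 5.91 in the same order, and differed by -3.04 ± 0.19 (8.24-fold) in sh-con and -3.47 ± 0.19 in sh-p53. Both arrestins stood highest with AICAR in each line. MXD1, a MAX-binding repressor, differed by -1.78 and KLF10, a Krüppel-like factor, by -1.16. The factors themselves were not called: MLXIP, which encodes MondoA, differed by 0.33 ± 0.15, MLXIPL by 0.37 ± 0.14 and MLX by 0.35 ± 0.14, though all 3 were called, as higher with Nutlin, when the arrays were quantile normalised again, and MLXIPL also without array 1 of sh-con AICAR.

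Growth factor and early response genes differed in both directions. Of 13 EGF receptor ligands and receptors 4 (30.8%) were higher with Nutlin, 2 (15.4%) were higher with AICAR and 7 were not called (median 0.128). Over all genes the shares were 17.9% and 16.9%, so that the AICAR share lay near that of all genes. The AICAR count fell without array 2 of sh-con Nutlin. HBEGF, a ligand of the EGF receptor, read 5.87 and 5.73 with Nutlin, 9.41 and 9.30 with AICAR and 5.77 and 5.70 with DMSO. The Nutlin arrays overlapped the DMSO arrays, and AICAR was 11.8-fold higher (-3.56 ± 0.14, adjusted p = 4.42e-12), as in sh-p53 (-3.32 ± 0.14). The receptor EGFR went the other way, at 6.95 and 6.73 against 5.59 and 5.45 (1.32 ± 0.14), but differed by 0.16 ± 0.14 in sh-p53, an interaction of 1.15. ERBB3, a partner receptor, differed by 1.12.

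Of 25 immediate early and stress kinase genes 11 (44%) were lower with Nutlin and 4 (16%) higher (median -0.251), beside 16.9% and 17.9% of all genes. The higher count fell without array 1 of sh-con Nutlin. DUSP10, a phosphatase of stress kinases, differed by -2.24, FOS by -1.95 and JUNB by -1.38, the last pair being subunits of AP-1, and KLF6 was higher with Nutlin (1.15). DUSP10 and JUNB kept their order in sh-p53 (-2.35 and -1.90). Among 12 NF-kB genes NFKB2, a precursor subunit, differed by -0.97 and the chemokine CXCL8 by -0.63. In the interferon list IFI6 differed by -1.81, IRF1 by -1.04 and the oligoadenylate synthetase OAS1 by 1.14. Of its 19 tested genes 3 (15.8%) were higher, near the 17.9% of all genes, and 5 (26.3%) lower, beside 16.9%. The lower count fell without array 1 or array 2 of sh-con Nutlin.

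The genes furthest apart in both lines were ranked by the smaller of the 2 differences, a ranking made after the values had been seen. MUC13 led the AICAR side: it read 4.0 and 4.02 with Nutlin, at the background level, 8.79 and 8.46 with AICAR and 3.8 and 4.27 with DMSO. It differed by -4.62 ± 0.17 in sh-con and by -3.76 ± 0.17 in sh-p53, where it read 4.98 and 4.66 against 8.42 and 8.73. Its interaction was -0.87 (limma adjusted p = 0.0388). HBEGF, ARRDC4 and CCNE2 followed, then the non-coding HCP5 (-3.77 and -2.81), ZNF280A (-3.17 and -2.80), MYBL1, a MYB family factor (-3.87 and -2.74), and RND1, a small GTPase (-2.68 and -2.89). Of these the interaction was called for CCNE2 (-1.47), HCP5 (-0.96) and MYBL1 (-1.13), but not for HBEGF, ARRDC4, ZNF280A or RND1. IGFBP1 led the Nutlin side, with NSRP1, SLC7A11, PTPRK, PRKCA, PLCB1, ARRB1, VPS13B, SLC20A2, CADPS2, EXOC6B and GPHN after it. The loci of the 12 AICAR-side genes were at most 61.3 kb long, and those of the 12 Nutlin-side genes ran from 5.17 kb for IGFBP1 to 1230 kb for GPHN. Of these NSRP1, SLC7A11, ARRB1 and SLC20A2 measured 69.7, 78.3, 91.5 and 125 kb, and PTPRK, PRKCA, PLCB1, VPS13B, CADPS2 and EXOC6B 552, 508, 753, 864, 568 and 650 kb.

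Locus length went with the direction of the difference over all genes. Of 363 genes with a locus over 300 kb, 213 (58.7%) were higher with Nutlin and 9 (2.48%) lower, with a median of 0.625. For loci of 100 to 300 kb the shares were 44% and 5.8%, with 750 higher and 99 lower, the lower count being 57 without array 2 of sh-con Nutlin and 60 without array 1 of sh-con AICAR. For loci under 10 kb they were 7.97% and 16.5%, with 301 higher and 622 lower. In sh-p53, 59% of the longest loci were higher and 0.826% lower, the 3 lower genes becoming 6 without array 2 of sh-p53 Nutlin. Against DMSO, the median of the longest loci in sh-con was 0.0331 with Nutlin, with 42 (11.6%) higher and 61 (16.8%) lower, near the 11.3% and 18.9% of all genes. With AICAR it was -0.756, with 8 (2.2%) higher and 232 (63.9%) lower, beside 14.6% and 23.2% of all genes. The gene lists were not matched for locus length, and the part of length in their counts was not tested.

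**Figure D4:**
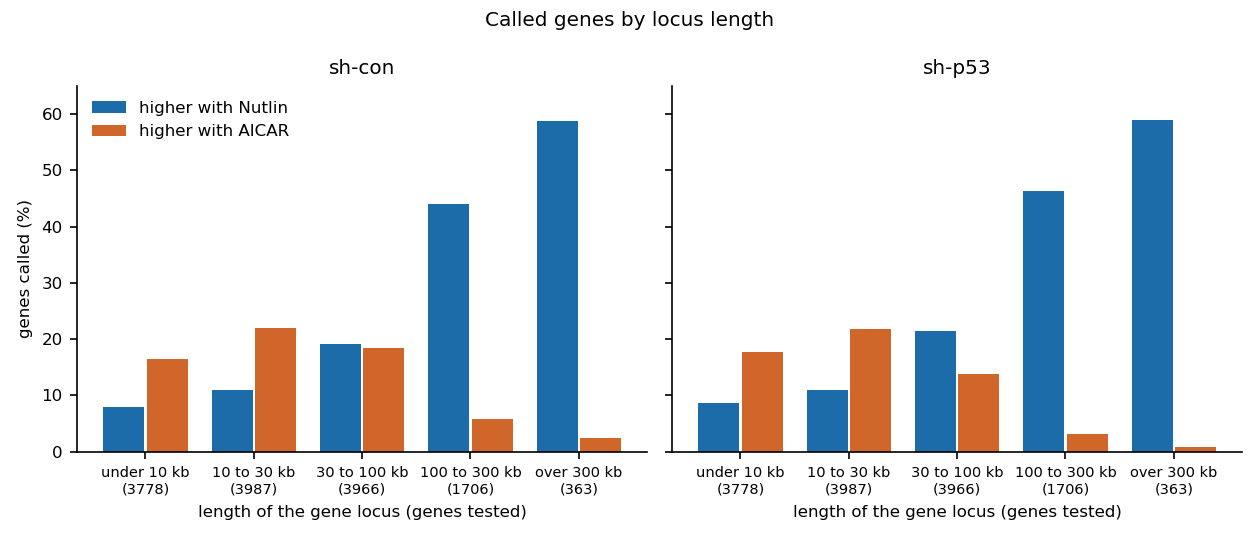
Percent of tested genes called higher with Nutlin (blue) and higher with AICAR (orange) by the length of the gene's locus, in sh-con and in sh-p53, with the number of genes under each bin. Blue bars rise from 7.97% in the shortest to 58.7% in the longest loci of sh-con and from 8.68% to 59% in sh-p53.

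Signalling genes with long loci were among those highest with Nutlin. PRKCA, protein kinase C alpha, read 8.18 and 7.86 with Nutlin, 5.41 and 5.45 with AICAR and 8.60 and 8.50 with DMSO. Both compounds lay below DMSO, Nutlin by -0.53 (limma adjusted p = 0.0164) and AICAR by -3.12, and the compounds differed by 2.59 ± 0.16 in sh-con and 2.39 ± 0.16 in sh-p53. PLCB1, the phospholipase that feeds protein kinase C with diacylglycerol, read 9.17 and 8.97 against 5.99 and 5.47 (3.34 ± 0.16, 10.1-fold), and its interaction was 1.03. DGKA, a diacylglycerol kinase, differed by 1.69 in sh-con and 0.13 in sh-p53, an interaction of 1.56, and read 5.57 and 5.35 with DMSO, beneath both compounds. Of the 13 genes of this list 5 (38.5%) were higher with Nutlin and 2 (15.4%) lower, beside 17.9% and 16.9% of all genes. The lower count fell without array 2 of sh-con Nutlin or array 1 of sh-con AICAR. PTPRK, a receptor phosphatase, differed by 2.72 and VAV2, a guanine nucleotide exchange factor, by 2.54.

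The Wnt and Hippo list had 10 of 21 members (47.6%) higher with Nutlin and 2 (9.52%) lower (median 0.218), beside 17.9% and 16.9% of all genes. The lower count fell without array 2 of sh-con Nutlin or array 1 of sh-con AICAR. The receptor-removing ligases ZNRF3 and RNF43, which are Wnt targets, differed by 1.67 and 1.15, and by 1.65 and 1.19 in sh-p53. The Hippo effector WWTR1, its partner TEAD1 and their target ANKRD1 differed by 1.43, 1.49 and 1.72. The loci of TEAD1, WWTR1, ZNRF3 and RNF43 are 270, 208, 174 and 65 kb long, and that of ANKRD1 8.99 kb. Of all loci of 100 to 300 kb 44% were higher with Nutlin. Against DMSO in sh-con 14 of the 21 list members (66.7%) were lower with AICAR and 7 (33.3%) with Nutlin, beside 23.2% and 18.9% of all genes. Those comparisons share the DMSO arrays. In the matrix and adhesion list 10 of 24 (41.7%) were higher and 3 (12.5%) lower (median 0.345). Of the matricellular genes CCN1 and CCN2, CCN2 read 11.06 and 10.91 against 9.50 and 9.55 (1.46 ± 0.13) and differed by 0.00 in sh-p53, an interaction of 1.46. CCN1 differed by 1.28 in sh-con and by -0.93 in sh-p53, an interaction of 2.21.

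**Figure D5:**
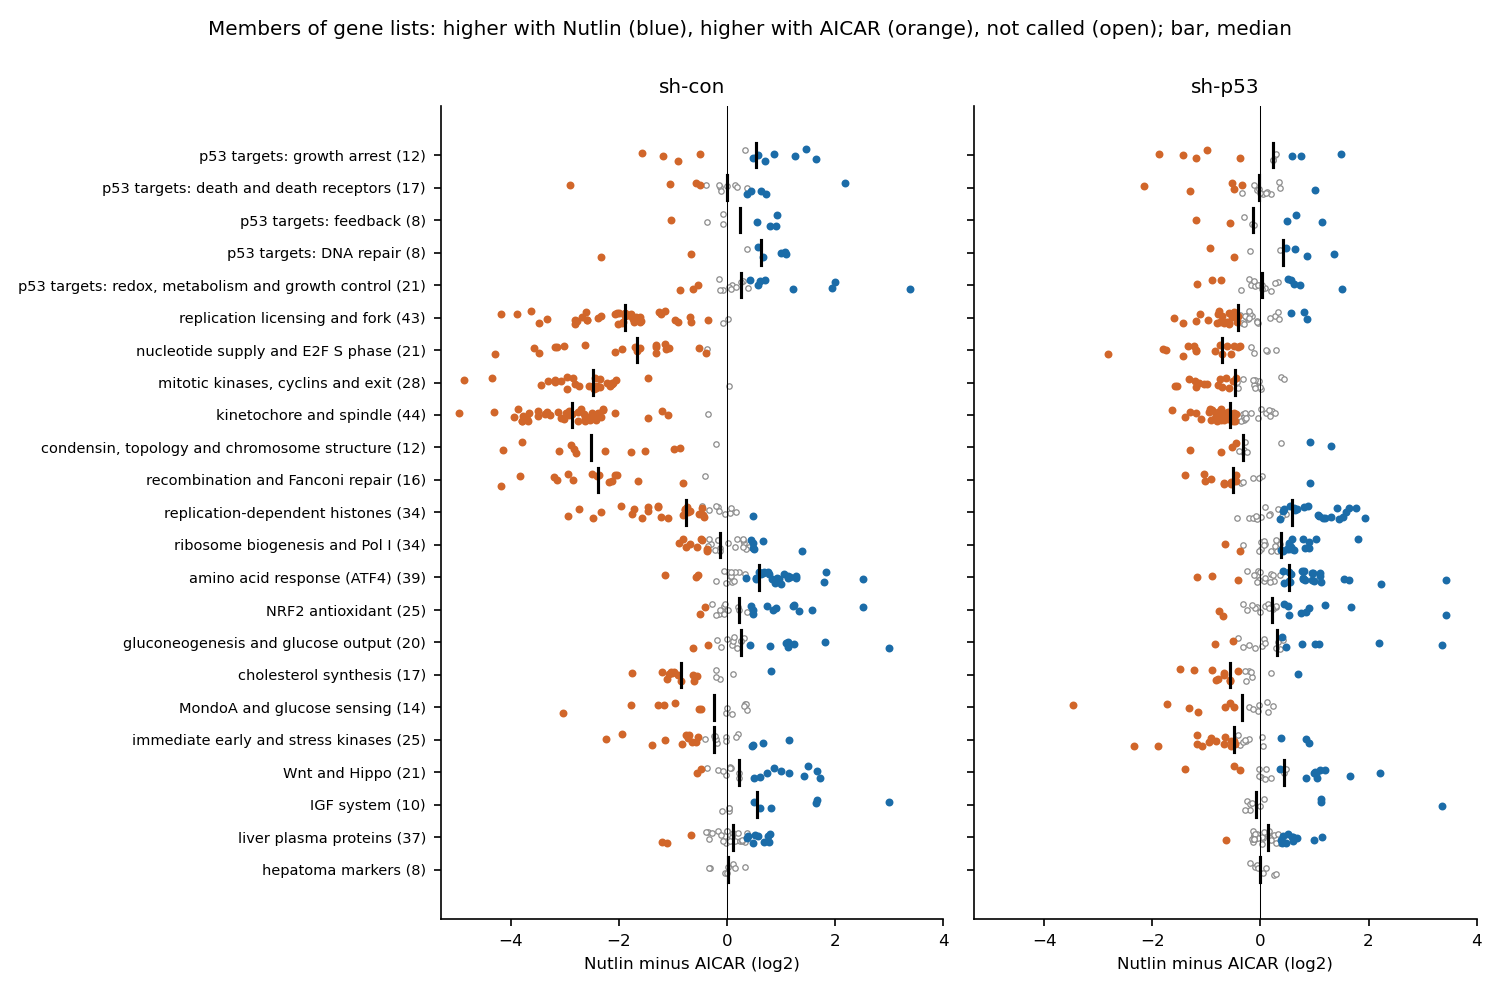
Nutlin minus AICAR on the log2 scale for the tested members of 23 lists (number in brackets) in sh-con and sh-p53, blue where a gene was higher with Nutlin, orange where it was higher with AICAR, open where it was not called, and a black bar at the median. The sh-con cell cycle bars lie between -2.88 and -1.66 and the sh-p53 ones between -0.71 and -0.32, while the histone bar crosses from -0.754 to 0.586.

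In liver metabolism the compounds separated cholesterol synthesis most evenly. Of 17 tested genes 12 were lower with Nutlin and 1 was higher (median -0.848), with a median of -0.555 in sh-p53. IDI1, the isopentenyl diphosphate isomerase, read 9.64 and 9.58 with Nutlin, 11.37 and 11.38 with AICAR and 9.89 and 9.82 with DMSO (-1.76 ± 0.13). STARD4, a sterol carrier, differed by -1.21, DHCR7, the last step of the pathway, by -1.12, the isomerase EBP by -1.07 and the desaturase SC5D by -1.03. Against DMSO in sh-con 10 of the 17 were higher with AICAR and 2 with Nutlin, and 0 and 3 were lower, the DMSO arrays being shared. Over all genes 14.6% and 11.3% were higher, and 23.2% and 18.9% lower. In fatty acid synthesis 8 of 18 were lower and 2 higher: ACSS2, which makes acetyl-CoA from acetate, differed by -1.34, DGAT1, which closes triglycerides, by -0.98, and GPAM, which opens them, by 1.68.

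Of 20 gluconeogenesis and glucose output genes 8 were higher and 2 lower (median 0.259), the lower count being 1 without any 1 of the 4 sh-con arrays. IGFBP1, the insulin-repressed binding protein of liver, read 11.999 and 11.80 with Nutlin, 9.04 and 8.75 with AICAR and 10.74 and 10.77 with DMSO, so that the compounds lay on opposite sides of DMSO. It differed by 3.0 ± 0.22 in sh-con and by 3.35 ± 0.22 in sh-p53, where array 1 and array 2 of Nutlin read 10.95 and 10.13. The glucose transporter SLC2A2 differed by 1.82, the coactivator PPARGC1A by 1.24, and pyruvate carboxylase (PC) and the glucocorticoid receptor gene NR3C1 by 1.12 each. In fatty acid oxidation the carnitine transferase CPT1A differed by 1.82 and the ketone body enzyme BDH1 by 2.28, and both had positive interactions of 1.12 and 1.29; of that list 6 of 25 were higher and 5 lower (median -0.045), shares of 24% and 20% near the 17.9% and 16.9% of all genes, the lower count being 3 without either sh-con Nutlin array or array 1 of sh-con AICAR. In glycolysis ALDOC, the aldolase C gene, was higher with AICAR, at 10.16 and 9.95 against 7.98 and 7.24 (-2.44 ± 0.19), and the glucose transporter SLC2A1 was higher with Nutlin (1.05).

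The insulin-like growth factor list had 6 of 10 higher with Nutlin and 0 lower (median 0.553). The receptors IGF1R and INSR differed by 1.66 and 1.64 and by 1.12 each in sh-p53, while IGFBP3, IGFBP4 and IGFALS differed by 0.03, 0.04 and 0.03 and were not called. The loci of IGF1R and INSR are 316 and 182 kb long, and those of IGFBP3, IGFBP4 and IGFALS 9.03, 14.3 and 4.5 kb. IGFBP1, also higher, has a locus of 5.17 kb. Of all loci of 100 to 300 kb 44% were higher with Nutlin, and of those over 300 kb 58.7%. Of 26 AMPK and mTORC1 genes 7 (26.9%) were higher and 1 (3.85%) lower (median 0.235), beside 17.9% and 16.9% of all genes. The 1 lower gene was not called without array 1 of sh-con AICAR. RPTOR, the mTORC1 scaffold, read 7.71 and 7.47 against 6.08 and 5.82 (1.64 ± 0.14), beside 7.85 and 7.89 with DMSO. FNIP1, a partner of folliculin, differed by 1.10, the sestrin SESN3 by 0.93 and STRADA, a partner of the AMPK kinase LKB1, by 0.72.

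AICAR is an intermediate of purine synthesis, and of 27 genes that handle it or other purines 9 (33.3%) were higher and 8 (29.6%) lower with Nutlin (median 0.116). Over all genes the shares were 17.9% and 16.9%. PNP, which splits purine nucleosides, differed by -1.43, the phosphoribosyl pyrophosphate synthetases PRPS2 and PRPS1 by -1.28 and -1.15, and SHMT1, a folate enzyme, by -1.22. Of 12 pyrimidine genes 3 (25%) were higher and 4 (33.3%) lower, beside the same shares of all genes. The lower count fell without array 2 of sh-con Nutlin. DCK, deoxycytidine kinase, differed by -1.56 and the uridine kinases UCK1 and UCK2 by -1.37 and 0.66. HPRT1, of the purine salvage path, read 8.52 and 8.24 against 8.47 and 8.20 and overlapped.

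In antioxidant and detoxifying genes 11 of 25 NRF2-linked genes (44%) were higher with Nutlin and 2 (8%) lower (median 0.219). Over all genes the shares were 17.9% and 16.9%. The lower count fell without any 1 sh-con Nutlin or AICAR array. The factor gene NFE2L2 differed by 1.23, the glutathione enzyme GCLM by 1.22, the aldo-keto reductase AKR1B10 by 1.33 and the canalicular pump ABCC2 by 1.58. Of 24 cytochrome P450 and conjugation genes 9 (37.5%) were higher and 2 (8.33%) lower (median 0.156), beside the same shares of all genes. The lower count fell without array 1 of sh-con Nutlin or either sh-con AICAR array. CYP24A1, which inactivates vitamin D, differed by 2.34, CYP4F3 by 2.04, the sulfotransferase SULT2A1 by 1.43 and CYP4F11 by 1.27, with interactions of 1.05 for CYP24A1, 1.46 for CYP4F3 and 0.93 for CYP4F11, and -0.02 for SULT2A1.

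Of 37 plasma protein genes 9 (24.3%) were higher with Nutlin and 3 (8.11%) lower (median 0.1), within -1.20 and 0.79. Over all genes the shares were 17.9% and 16.9%. HP, which encodes the haemoglobin scavenger haptoglobin, was lower with Nutlin in sh-con, at 7.52 and 7.58 against 8.66 and 8.65 (-1.11 ± 0.21), and higher in sh-p53 (1.13 ± 0.21), an interaction of -2.24, though its near-identical neighbour HPR may share the probes. MTTP, which loads lipid onto apolipoprotein B, read 6.47 and 6.13 against 8.26 and 8.08 (-1.87 ± 0.16) and differed by 0.03 in sh-p53, an interaction of -1.89. In bile acid genes the nuclear receptor NR0B2 differed by 1.59 and the transporter subunit SLC51B by 1.35. Of 16 hepatocyte transcription factors 4 (25%) were higher and 0 lower, beside the same shares of all genes. HNF4G led them, at 6.53 and 6.02 against 5.07 and 4.5 (1.5 ± 0.19).

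Several genes used as loading references were not level between the compounds. Of 18 tested, 7 were lower with Nutlin and 1 was higher, the higher count being 2 without array 1 of sh-con AICAR. PPIA, cyclophilin A, differed by -1.45, POLR2A, the large subunit of RNA polymerase II, by -1.29, TFRC by -0.84, TBP by -0.78 and B2M by -0.70, and RAB7A by 0.63. ACTB and GAPDH differed by 0.01 ± 0.13 and -0.16 ± 0.14.

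Markers of other cell types moved in a few members. Of 7 endothelial markers 5 lay under the background level with Nutlin in sh-con, PECAM1, CDH5, VWF, KDR and TEK, and the others, LYVE1 and ENG, were higher with Nutlin. With DMSO in sh-con and in every sh-p53 group 6 of the 7 lay under that level, all but ENG. LYVE1, a hyaluronan receptor, read 8.37 and 7.77 against 4.81 and 4.73 (3.30 ± 0.18) and differed by 0.06 in sh-p53, an interaction of 3.24, and ENG, a coreceptor of the TGF-beta family, differed by 0.74. The summed linear level of the 7 ran from 415 to 499 in sh-con Nutlin and from 164 to 180 in sh-con AICAR. Of 6 leukocyte markers CD68, also a lysosomal protein, was lower with Nutlin (-0.84), PTPRC lay at the background level, and LYZ read between 12.46 and 12.57. The 4 fibroblast markers tested were not called, and DCN and LUM were under the background level. Of 5 cholangiocyte markers tested KRT19 differed by 1.00 and EPCAM by -0.91, and CFTR lay under the background level. The part of other cells in any of these results was not tested.

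Of 34 ribosome biogenesis genes 6 (17.6%) were higher and 9 (26.5%) lower with Nutlin in sh-con (median -0.137). The higher share lay near the 17.9% of all genes, and the lower share stood beside 16.9%. The higher count fell without array 1 of sh-con Nutlin or array 2 of sh-con AICAR. In sh-p53 17 (50%) were higher, 2 (5.88%) lower and 15 not called (median 0.38), beside 19% and 15.6% of all genes. That higher count fell without array 1 of sh-p53 Nutlin or array 1 of sh-p53 AICAR. NOLC1, a nucleolar chaperone, differed by -0.90 in sh-con, POLR1C, a subunit of polymerases I and III, by -0.81 and TAF1D, a polymerase I factor, by 1.38. Against DMSO in sh-con 25 of the 34 (73.5%) were lower with Nutlin and 23 (67.6%) with AICAR, and 0 were higher with either. Over all genes 18.9% and 23.2% were lower, and the DMSO arrays are shared. The 132 small nucleolar RNA genes, which guide the modification of ribosomal RNA, had 27 higher and 31 lower in sh-con (median 0.000144), shares of 20.5% and 23.5% near the 17.9% and 16.9% of all genes. Against DMSO in sh-con 57 of them (43.2%) were lower and 1 higher with Nutlin, and 56 (42.4%) lower and 14 (10.6%) higher with AICAR. In sh-p53 69 (52.3%) were higher and 17 (12.9%) lower (median 0.502), beside 19% and 15.6% of all genes, where the lower count was 11 without array 2 of sh-p53 AICAR. Their interaction was negative for 33 and positive for 0, and for 21 and 0 without array 1 of sh-p53 Nutlin.

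Of 61 microRNA genes tested 3 (4.92%) were higher and 4 (6.56%) lower with Nutlin, shares under the 17.9% and 16.9% of all genes. The mature sequences of 3 of the 7, named after their values were seen, are printed with the seed (bases 2 to 8) in capitals, from the RefSeq table. They lie on GRCh38.p14 at chr17:59841273-59841294 (plus strand), chr13:50049167-50049188 (minus) and chr7:100094043-100094063 (minus), and share no seed.
hsa-miR-21-5p: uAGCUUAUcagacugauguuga
hsa-miR-15a-5p: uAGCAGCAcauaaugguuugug
hsa-miR-106b-5p: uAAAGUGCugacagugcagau

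MIR21, the gene of a microRNA that is abundant in many tumours, read 10.43 and 10.09 with Nutlin, 8.75 and 8.29 with AICAR and 9.24 and 9.11 with DMSO. In sh-con the compounds lay on opposite sides of DMSO, 1.75 ± 0.17 apart. They were 1.53 ± 0.17 apart in sh-p53, where the Nutlin arrays (9.47 and 9.37) overlapped the DMSO arrays (9.44 and 9.16) and AICAR read 7.95 and 7.84. MIR15A, which lies in an intron of a non-coding host gene, read 4.25 and 4.40 against 5.39 and 5.97 (-1.35 ± 0.17), with its Nutlin arrays at the background level and an interaction of -0.92 that was not called without array 1 of sh-con Nutlin, array 2 of sh-con AICAR or array 1 of sh-p53 Nutlin or of sh-p53 AICAR. MIR106B, hosted by the replication gene MCM7, differed by -0.65 ± 0.16 and was not called without array 2 of sh-con AICAR, where it differed by -0.40. Whether these probe sets measured the primary transcript, the precursor or the mature form was not tested.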

How the data were processed

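RNA of 12 cultures was measured on Affymetrix Human Gene arrays. The deposited values were log2 expression per probe set, which the authors made with RMA in Partek, per the submitters' processing notes; versions are not named in those sources. Of 33297 probe sets 19460 had 1 gene symbol, 1754 had several and 12083 were unlisted; 19429 matched RefSeq. The brightest probe set stood for each of 18417 genes, and 4604 genes whose mean lay under the 25th percentile, at 4.58, were left out, which left 13813. limma 3.58.1 in R 4.3.3 fitted 6 group means over 12 arrays, with Benjamini-Hochberg adjustment over all tested genes, and the script was tested on simulated data. RMA quantile normalisation draws arrays toward one distribution, so much of a shift of most genes in one direction would be lost. The medians of the deposited arrays still ran from 5.64 to 5.84. Named genes were the 12 highest and lowest called, 6 and 6 for the interaction, up to 5 called members of each list, fixed p53, cell cycle and stress genes, and reference and marker genes (some are not reported here); POLA1, AARS1 and IARS1 were added for their promoters after their values were seen, as were genes of the ranking over both lines and microRNA genes. The members and lists were chosen with earlier results of these data known. Alternatives were other scalings, filters, probe set rules, variance priors, array subsets, a replicate block and leaving out each array.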

Additional observations from a re-analysis of the deposited data

Results flagged for a closer look

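The difference between Nutlin and AICAR itself differed between the lines, by limma's interaction test, for 364 genes in the positive and 724 in the negative direction. Among the positive ones ABCA12 (3.35), LYVE1 (3.24) and LCN15 (2.66), a lipocalin, were higher with Nutlin in sh-con and differed by 0.03, 0.06 and 0.27 in sh-p53. ABCA12 passed the brightness filter only through its sh-con Nutlin arrays, and LYVE1 lay under 4.58 in every sh-p53 group. CCN1 (2.21) was higher with Nutlin in sh-con and with AICAR in sh-p53. PLAU (1.99), which encodes urokinase, was higher with AICAR in both lines, with an sh-con difference of -0.59 against -2.58 in the sh-p53 line, and SERPINE2 (1.93), a protease inhibitor, differed by 2.05 in sh-con and 0.12 in sh-p53.

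Among the negative ones H2BC14 (-4.52), H2BC7 (-3.83) and H4C2 (-3.66) are histone genes whose order was turned round between the lines. CDK1 (-3.81), SPC25 (-3.67) and NUF2 (-3.63) are mitotic genes that lay far lower with Nutlin in sh-con and differed by -1.05, -1.30 and -0.05 in sh-p53.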

How the results depend on the processing

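With 2 arrays a group, single arrays moved the counts. Asking for a 2-fold change as well left 635 genes higher and 681 lower in sh-con, against 702 and 333 for sh-p53 cells, with 89 positive and 433 negative interactions. Without 1 array the sh-con counts ran from 1702 to 2458 higher and 1688 to 2346 lower, those of sh-p53 from 1667 to 2564 and 1539 to 1738, and the interactions from 173 to 461 positive and 409 to 1064 negative. Arrays centred on the median gave 1342 genes lower in sh-p53 and 211 positive interactions, a second quantile normalisation gave 729 positive interactions, and a fit of the 8 Nutlin and AICAR arrays gave 219; the cause was not tested. The replicate block gave 2473 and 2318 calls in sh-con, against 2617 and 2156 for sh-p53 cells, with 380 and 745 interactions. The same-number correlations between groups ran from -0.558 to 0.567, so the numbers were not taken to pair the samples. None of the named genes changed direction while called, under the alternatives run. Genes near the background level have differences of uncertain size.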
